A study of Brassica napus with 6 samples.

Results

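Tubulins are the building blocks of microtubules. An alpha- and a beta-tubulin form a dimer, dimers join into hollow filaments, and in growing root cells the filaments under the plasma membrane guide the enzymes that lay down cellulose. Plants carry small families of alpha-tubulin (TUA) and beta-tubulin (TUB) genes whose proteins are very alike, and members of each family differ in the organs in which they are used. The probe sets described here are those that the array's annotation assigns to any of 10 listed tubulin genes, TUA2 to TUA6 and TUB4 to TUB8. The annotation used here names 6 of the 10, out of 14328 genes that it names in all, and they are read by 5 of the 22746 tested probe sets; TUA2, TUA4, TUB4 and TUB8 were not analysed here. TUB7, TUA6, TUB5 and TUB6 each have 1 probe set, and 1 probe set is shared by TUA5 and TUA3. The members were chosen by gene name but with the difference between Cd plus GSH and Cd only on these same arrays in view, in which TUB7 stood higher with glutathione, so differences between the treatments are given as descriptions, with their errors and without p-values.

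The plants were oilseed rape, Brassica napus, of the cultivar Nourin No.16, raised in hydroponics, and their roots were measured with 1 array per sample and 3 biological replicates in each group. Both groups were kept for 2 days in solution with 10 µM cadmium chloride. The Cd only group received nothing else, and the other group (Cd plus GSH) also received reduced glutathione (GSH), a thiol tripeptide, at a concentration that the labels give as 100 mM. The labels put the age at 4 weeks from germination, whereas the growth protocol speaks of seedlings of 2 to 3 weeks, and plants grown without cadmium were not analysed here. The sources used here do not say how many plants made up a replicate.

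The array was designed for Arabidopsis thaliana, so each probe set is named for an Arabidopsis gene. Several oilseed rape counterparts may be read together by a probe set, and which of them it reads was not tested. Tubulin coding sequences are close to each other, so signal from related copies may reach the same probe set, and the shared set for TUA5 and TUA3, whose Arabidopsis proteins are identical, cannot be assigned to either gene. Levels of different probe sets cannot be set against each other. In RNA from whole roots, fewer cells of a type that uses a gene and less of its RNA per cell cannot be told apart.

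TUB7 and the set shared by TUA5 and TUA3 stood higher on every Cd plus GSH array than on any Cd only array, by 0.47 and 0.61 on the log2 scale. TUA6 and TUB5 varied little and their groups overlapped, and TUB6 held a single value on all 6 arrays. The tubulin probe sets thus divided into a pair with a large difference and a rest with differences of at most 0.04. A constant, barely varying or low signal limits what that rest can show. Groups did not overlap in 18.7% of all varying probe sets, 8.90% higher with GSH.

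The beta-tubulin TUB7 had log2 signals of 7.57, 7.29 and 7.38 on Cd only replicates 1, 2 and 3. On Cd plus GSH replicates 1, 2 and 3 it had 7.92, 7.93 and 7.81. The groups did not overlap, and the lowest Cd plus GSH array lay 0.24 above the highest Cd only array. The means were 7.41 ± 0.14 (SD, n = 3) and 7.89 ± 0.07 (SD, n = 3), a difference of 0.47 with a limma standard error of 0.08 and a 95% interval from 0.27 to 0.68. If the deposited scale is log2, as its range of values implies, this is a 1.39-fold difference. The Cd only arrays spread over 0.28 and the Cd plus GSH arrays over 0.12, both less than the difference.

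The alpha-tubulin set shared by TUA5 and TUA3 had signals of 7.94, 7.86 and 8.18 on Cd only replicates 1, 2 and 3. Its signals on Cd plus GSH replicates 1, 2 and 3 were 8.56, 8.59 and 8.67. Here too the groups did not overlap, with 0.38 between the nearest arrays of the groups. The means were 7.99 ± 0.17 (SD, n = 3) and 8.61 ± 0.05 (SD, n = 3), and the difference of 0.61 had a limma standard error of 0.09 and a 95% interval from 0.39 to 0.84, a 1.53-fold difference on the same assumption. The Cd only arrays spread over 0.32 and the Cd plus GSH arrays over 0.11. The sets that stood higher thus included alpha- and beta-tubulin, the partners of the dimer, but the same contrast guided the choice of genes. Nothing is read from this about the dimer.

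**Figure D1:**
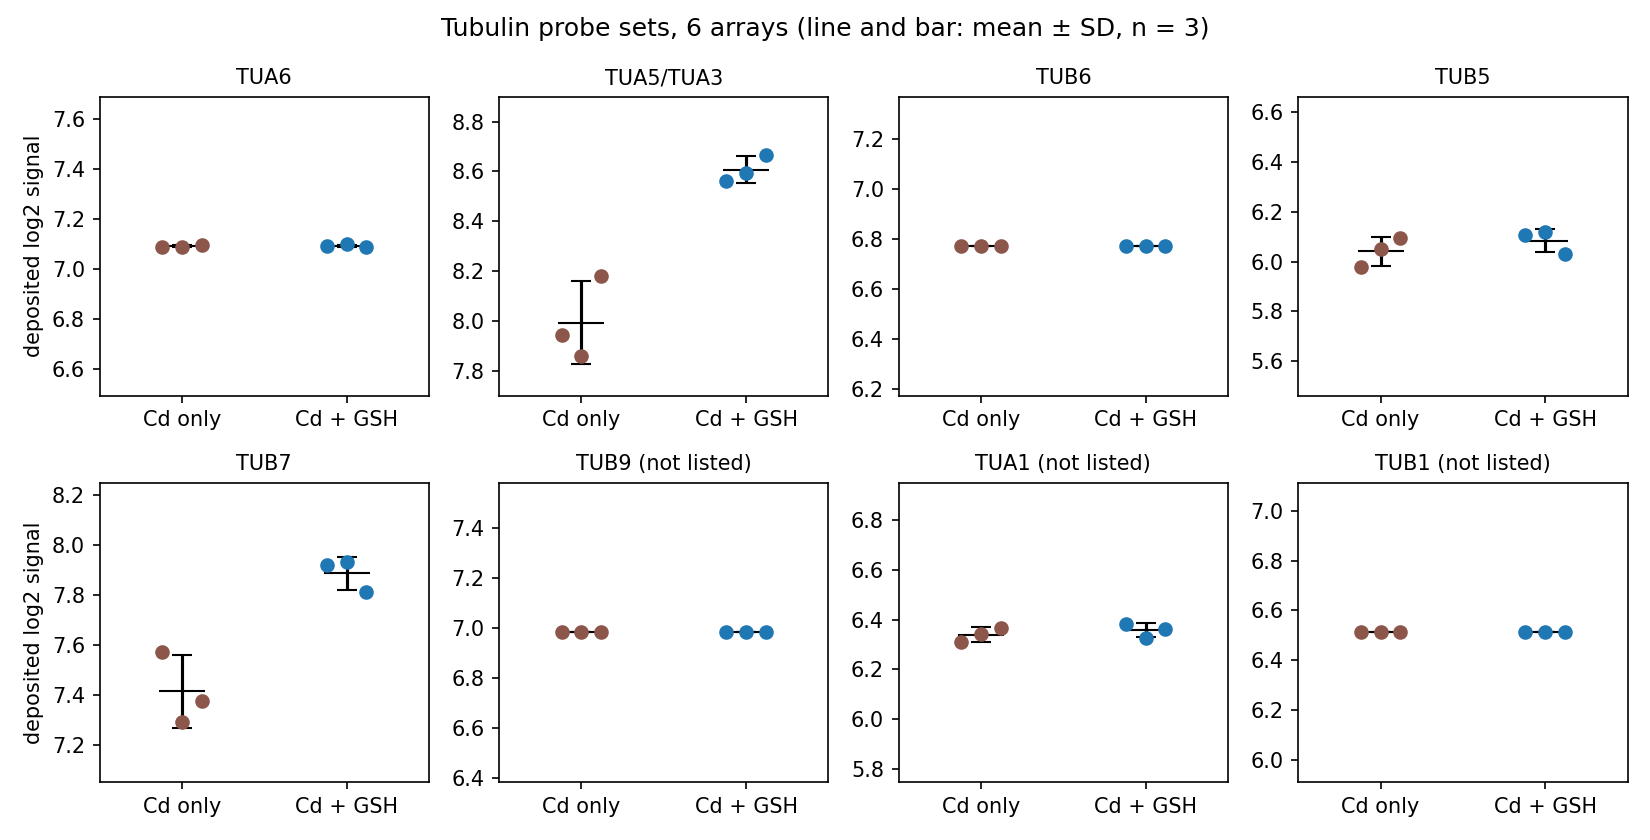
Deposited log2 signal of the 8 tubulin probe sets described here, 1 panel per probe set. Points are arrays, shown with the mean ± SD of each group (n = 3). Every panel spans the same height on the log2 scale; TUB7 and TUA5/TUA3 are separated between the groups, by 0.24 and 0.38 between the nearest arrays, while the other panels are nearly flat.

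Within the groups these sets did not follow the same arrays. Among the Cd only arrays TUB7 was highest on replicate 1, at 0.16 above its group mean, whereas the TUA5 and TUA3 set was there 0.05 below its own and was highest on replicate 3, at 0.19 above it. Both were lowest on Cd only replicate 2, by -0.12 for TUB7 and -0.13 for the alpha-tubulin set. Among the Cd plus GSH arrays, replicate 3 gave the lowest TUB7 signal (-0.08 from the group mean) and the highest TUA5 and TUA3 signal (0.06). The first principal component of the varying probe sets, with 57% of their variance, put the Cd only arrays at -8.5, -3.9 and -2.0. The Cd plus GSH arrays lay at 7.0, 3.9 and 3.5, so Cd only replicate 1 had the most extreme score. Without that array the TUB7 difference was 0.55 and that of the alpha-tubulin set 0.59.

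TUA6, an alpha-tubulin whose fusion to a fluorescent protein is widely used to see plant microtubules, ranged over 0.011 on the 6 arrays, just past the limit of 0.01 that defined a varying probe set. Its signals were 7.09, 7.09 and 7.10 on Cd only replicates 1 to 3 and 7.09, 7.10 and 7.09 on the corresponding Cd plus GSH arrays. The groups overlapped, and the difference of 0.002 had a 95% limma interval from -0.03 to 0.04. A range this close to the limit says little about the transcript.

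TUB5, a beta-tubulin, had signals of 5.98, 6.05 and 6.09 on Cd only replicates 1 to 3 and of 6.10, 6.12 and 6.03 on the corresponding Cd plus GSH arrays. The arrays of the groups were interleaved, and the difference of 0.04 had a 95% limma interval from -0.06 to 0.15. Its Cd only mean of 6.04 was not above 6.05, the highest mean among 27 control probe sets for the bacterial genes dap, lys, phe, thr and trp. With a Cd plus GSH mean of 6.08, the size of a change in its transcript cannot be read from these values. TUB7 and the TUA5 and TUA3 set lay 1.60 and 2.25 above that control level on average.

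TUB6, a beta-tubulin often used as a reference gene, was constant at 6.77. A constant value on arrays of different plants carries no information on the treatment in either direction, although its level lay 0.72 above the bacterial control level. Of the tested probe sets, 20318 of 22746 were constant in this sense, so TUB6 shared this with most of the table. Of the 5 listed tubulin probe sets, 4 varied.

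**Figure D2:**
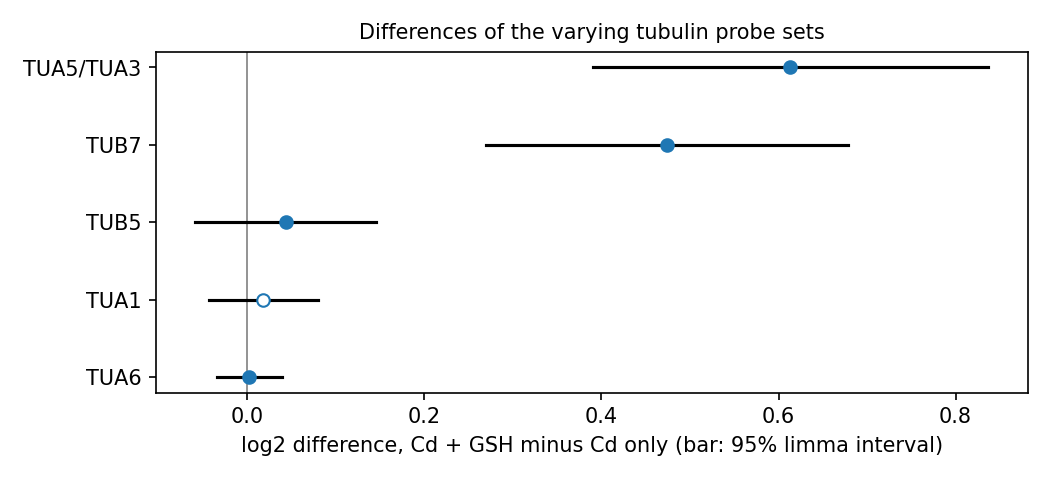
Log2 difference, Cd plus GSH minus Cd only, of the 5 tubulin probe sets described here that varied, with 95% limma intervals as bars. Filled points are listed tubulins and the open point is TUA1. The intervals of TUA5/TUA3 and TUB7 run from 0.39 to 0.84 and from 0.27 to 0.68. Those of TUB5, TUA1 and TUA6 run from -0.06 to 0.15, -0.04 to 0.08 and -0.03 to 0.04. The intervals are not adjusted for the choice of genes or the number of probe sets fitted, and they are no test.

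All of the differences were read from one limma fit over the 2428 probe sets that varied. With Benjamini-Hochberg adjustment that fit called 0 of the 2428 probe sets at an adjusted p under 0.05 (0.00%), so no tubulin was called, and 312 probe sets (12.9%) had an unadjusted p under 0.05, 150 of them higher with GSH (6.18%) and 162 lower (6.67%). Without Cd only replicate 3, the Cd only array on which the TUA5 and TUA3 set was highest, the fit called 13 of the 2428 probe sets. The TUA5 and TUA3 set was among them, with a difference of 0.71. Nothing is read from that call, because the same contrast guided the choice of genes. TUB7 was not among the calls in any alternative run. The groups did not overlap in 455 of all varying probe sets (18.7%), 216 higher with GSH (8.90%) and 239 lower (9.84%). With quantile normalisation this split was 266 higher and 185 lower, and with each array centred on its median it was 336 and 180. Among the 4 varying tubulin probe sets, 2 were higher without overlap, 0 were lower and 2 overlapped, a count from which nothing is read because the same contrast guided the choice of genes.

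The median difference of the 4 varying tubulin probe sets was 0.26, which lies between the pair near 0 and the pair at 0.47 and 0.61 and describes neither, and it was 0.47 with TUA6 left out by a range over 0.1. The median over all 2428 was -0.0007, and nothing is read from the contrast because it guided the choice of genes. As a description, 26 varying probe sets had a larger positive difference than the TUA5 and TUA3 set (1.07%), and 36 had a larger one than TUB7 (1.48%). Nothing is read from these ranks either, for the same reason. TUB5 and TUA6 lay inside the bulk, with 500 and 1140 probe sets above them.

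**Figure D3:**
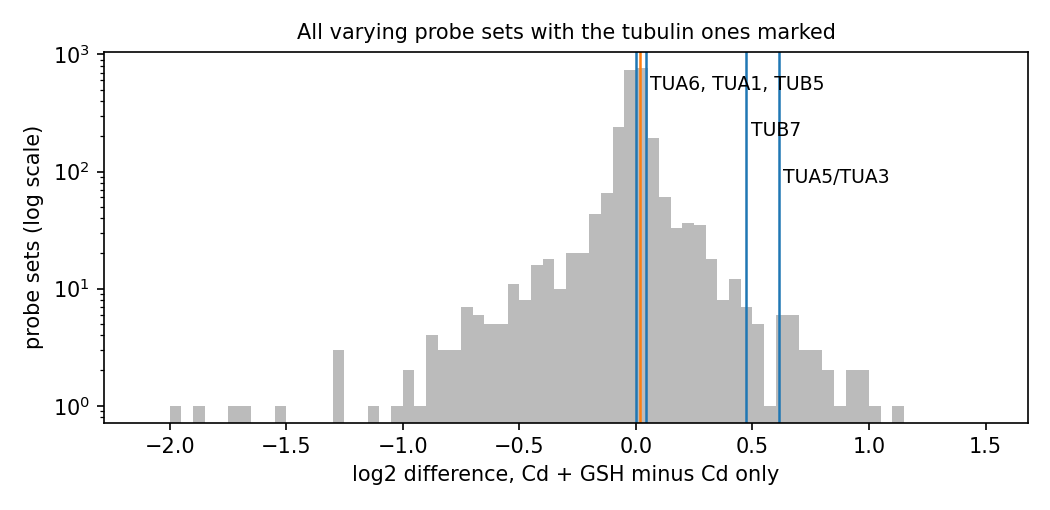
Histogram of the log2 difference, Cd plus GSH minus Cd only, over the 2428 varying probe sets, with counts on a log axis; blue lines mark listed tubulins and the orange line TUA1. TUB7 (0.47) and TUA5/TUA3 (0.61) lie in the right tail, and TUA6, TUA1 and TUB5 lie near 0.

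Another 3 tubulin genes that were not on the list had probe sets of their own in the annotation. Probe sets that the annotation shares between such genes were not looked up. TUA1, an alpha-tubulin used mainly in pollen in Arabidopsis, had signals of 6.31, 6.34 and 6.37 on Cd only replicates 1 to 3 and of 6.38, 6.33 and 6.36 on the corresponding Cd plus GSH arrays. Its groups overlapped, and the difference of 0.02 had a 95% limma interval from -0.04 to 0.08. TUB1, a beta-tubulin known for its use in Arabidopsis roots, was constant at 6.51 and TUB9 at 6.98. Over the 8 tubulin probe sets described here, the groups were separated in TUB7 and in the TUA5 and TUA3 set. Of all varying probe sets, 18.7% had groups that did not overlap, 8.90% higher with GSH. The constant TUB6, TUB1 and TUB9 could not show a separation. TUA6 barely varied and TUB5 lay near the bacterial control level, so no specificity is read from this.

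Genes that act with tubulin were looked up by symbol in 5 lists, for tubulin folding and other tubulins, microtubule-associated proteins, kinesins, actins with their binding proteins, and cellulose synthesis of the primary wall. Of 166 symbols searched, synonyms included, 10 matched a probe set with a single gene name, and 2 of these varied. Of the 2, 0 were called at an adjusted p under 0.05 or stood apart between the groups. Over all varying probe sets 0.00% were called and 18.7% did not overlap, so nothing is read from these counts. The 2 varying sets were TUA1 and ACT11, an actin. ACT11 differed by 0.05 with a 95% limma interval from -0.03 to 0.13. Its mean lay only 0.05 above the bacterial control level, so the size of a change in ACT11 cannot be read from these values. The folding factors PFI and POR, which help to assemble the dimer, were constant, and so were TON1B, which helps to organise cortical microtubule arrays, and SPR1, a microtubule-localised protein of directional cell growth. ACT12 and COB, a protein needed for oriented cellulose deposition, were constant too, and no kinesin symbol was matched. For these constant genes the values cannot show whether partners of tubulin differed along with TUB7.

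The 5 named genes whose signals followed TUB7 most closely over the 6 arrays were found by the mean absolute difference between values centred on each probe set's own mean, among 1185 varying probe sets with a single gene name. They were AT4G26230, of the large ribosomal subunit, at 0.047 from TUB7, the pectate lyase gene AT1G04680 at 0.055, AT4G12600, of a ribosomal protein family, at 0.077, and AT2G27710 and AT3G05560, both of the large ribosomal subunit, at 0.082 and 0.083. The median over all 1185 was 0.237. Being chosen for closeness to TUB7 on these arrays, these genes also had its relatively high signal on Cd only replicate 1. There AT4G26230 stood at 7.70 against 7.47 and 7.59 on Cd only replicates 2 and 3. The groups overlapped in AT2G27710 and AT3G05560, whose Cd only replicate 1 signals were 7.48 and 8.65 and whose lowest Cd plus GSH signals were 7.43 and 8.63. The TUA5 and TUA3 set lay farther from TUB7, at 0.123, with 22 of the named genes closer.

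**Figure D4:**
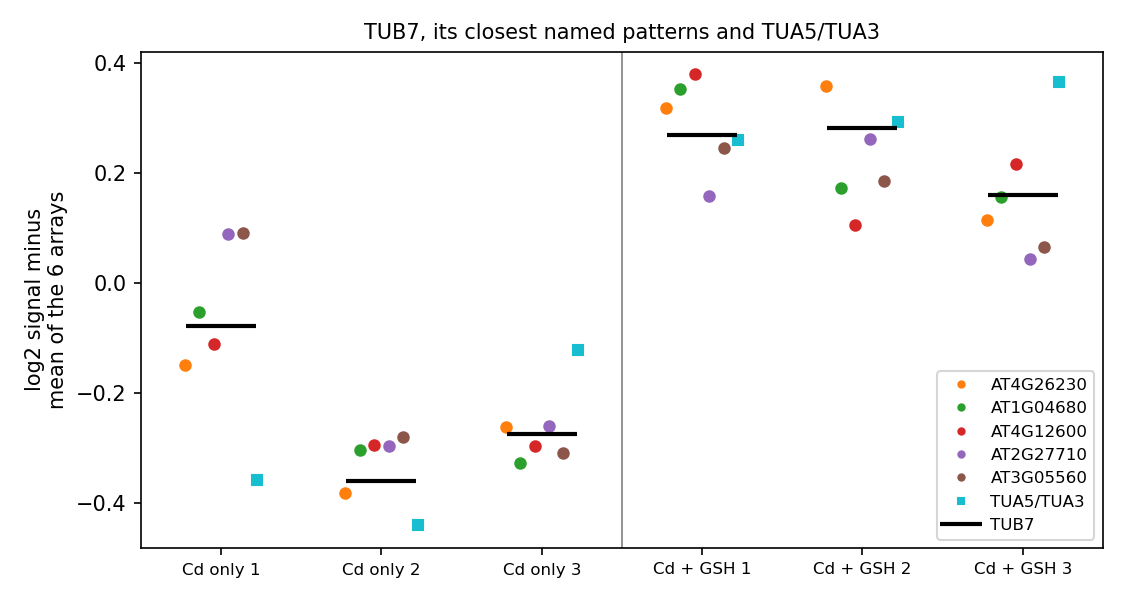
Log2 signal minus each probe set's mean over the 6 arrays, for TUB7 (black bars), the 5 named genes closest to it (circles) and TUA5/TUA3 (squares), by array. The circles were chosen for closeness to TUB7 and follow it on Cd only replicate 1, where the squares lie lower.

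Of 11 varying control probe sets for plant ribosomal RNA, actin, GAPDH and ubiquitin, 2 had groups that did not overlap. The other 9 overlapped, with differences from -0.19 to 0.02. Among the varying probe sets that are not controls, 18.7% had groups that did not overlap, so nothing is read from the count of 2. A set for the 3' end of actin had signals of 8.71, 8.68 and 8.58 on the Cd only arrays and 8.95, 8.88 and 8.80 on the Cd plus GSH arrays, a difference of 0.22 without overlap, while its 5' partner differed by 0.01. A set for the middle of ubiquitin differed by -0.23, also without overlap. Their part in the tubulin differences was not tested. Markers of other cells of the root gave little to set beside the tubulins, since of 83 symbols searched for dividing cells, root hairs, xylem, endodermis and green tissue 7 were matched and 6 of those were constant. The root hair expansin EXPA18 varied and differed by 0.03, with a 95% limma interval from -0.14 to 0.20. The green tissue genes RCA and LHCB4.1 were constant at 6.04 and 6.07, near the bacterial control level.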

How the data were processed

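The authors deposited 1 value per probe set and array, taken here as log2 from its range of 5.20 to 11.40 over the tested probe sets. The submitters' processing notes list R 2.7.2. How background was corrected, arrays normalised and probe sets summarised is not stated in any source used here, and without slides or scan dates no batch could be tested. Biotin-labelled RNA was made from 100 ng of total RNA with a 3' kit, per the labels' protocols. The 6 columns carry the samples' names, and precision is limited by there being 3 arrays per group.

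Of 22810 probe sets, 64 controls were kept apart. The probe annotation gave 1 gene for 13513 of the 22746 tested, several for 503 and none for 8730. Probe sets that ranged over more than 0.01 on the 6 arrays (2428) were fitted with limma 3.58.1 in R 4.3.3, Cd plus GSH minus Cd only, with Benjamini-Hochberg adjustment over all of them at 0.05. The fit was also run on simulated data. Those had independent noise in each probe set, without differences shared by whole arrays, so nothing is read from that run about these arrays. Every probe set of a listed tubulin was named, as were those of a single other tubulin gene. Also named were up to 3 varying genes per list by unadjusted p, and the 5 genes closest to TUB7. The members, lists, range limit and tests were chosen with earlier results of these data known. With same-numbered replicates, the correlations of deviations from the group means were -0.11, -0.21 and 0.13, so the numbers were not taken to pair the samples. No sequence of these probe sets was used here.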

Additional observations from a re-analysis of the deposited data

How the results depend on the processing

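Over quantile normalisation, median centring, the replicate block and leaving out each array, the difference of TUB7 lay between 0.41 and 0.55, that of the TUA5 and TUA3 set between 0.55 and 0.71, and that of TUB5 between 0.01 and 0.07. TUB5 thus moved by over 1.5 times although within its spread between replicates. TUA6 lay between -0.0003 and 0.02, so its sign was not fixed. In the replicate block fit the differences were the same by construction, 0 probe sets were called and 301 had an unadjusted p under 0.05. The median of the varying tubulin sets was 0.47 at a range over 0.1, which leaves out TUA6. With 1 array left out it was 0.23 to 0.29, and 2 or 3 tubulin sets did not overlap. In those runs 643 to 756 of all 2428 varying probe sets did not overlap, against 455 with all arrays. Called probe sets numbered 2 with quantile normalisation, 5 with a range over 0.1, 0 to 13 with 1 array left out and 42 with all probe sets. No listed tubulin set that varied was among the 2, the 5 or the 42. The other tubulin sets were not looked up among these calls. All probe sets together gave 1279 with an unadjusted p under 0.05, against 208 to 338 with 1 array left out. That unadjusted count split into 150 higher and 162 lower, 177 and 135 with quantile normalisation and 190 and 127 with median centring. Counts of groups that did not overlap were higher with 1 array left out, since fewer arrays overlap less. The cause of the other shifts was not tested. Constant values limit what these arrays can show for TUB6, TUB1 and TUB9, and the low signal does so for TUB5.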
